A study of Mus musculus with 6 samples.

Results

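The regions described here held very few captured reads in the newborn mouse heart and clearly more reads at 14 days. They were chosen by their counts in a table of regions from methyl-CpG capture sequencing. A region was taken when it lay on chromosomes 1 to 19, was at most 5000 bp wide, held at most 15 reads summed over the 3 P1 libraries, and held at least 5 reads in each of the 3 P14 libraries. This rule found 2269 regions, which is 1.74% of the 130221 distinct regions of that width on these chromosomes, here called narrow regions, and a small part of the 213957 distinct regions of the whole table. Because the rule uses the reads at both ages, the difference in reads between ages is how the regions were picked, and it is given as a description without a test.

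The samples were ventricles of male C57BL/6 mice, 3 libraries at postnatal day 14 (P14) and 3 at postnatal day 1 (P1), neither age with a genetic change or a treatment. The labels call the tissue left ventricle, while the protocol describes whole ventricles with the septum kept and the atria taken off. How many animals went into a library is not given in the sources used here, so the spread between libraries may be partly technical. Captured DNA carries no measure of gene expression, so the tissue could not be checked by marker genes.

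In mammals DNA is methylated mostly at cytosines that are followed by guanine, the CpG sites. Methylation is laid down by the enzymes Dnmt3a and Dnmt3b and copied at cell division by Dnmt1. CpG-rich promoters usually stay free of it, and gene bodies, CpG-poor regulatory elements and repeats usually carry it. In the capture used here, a methyl-CpG binding domain retains fragments that hold methylated CpG sites, so a region gains reads when its CpGs are methylated in more of the DNA molecules. In the weeks after birth, most heart muscle cells leave the cell cycle and enlarge, while other cell types of the heart multiply. In whole ventricle, a change within cells and a change in the mix of cell types cannot be told apart.

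Few of the regions lie at a gene start, and the promoter sequences printed here are shown because they lie in, or reach into, such regions and show the CpG sites at these gene starts. They are RefSeq sequences of GRCm38.p6 from 250 bases before to 50 bases after the start, read 5′ to 3′ on the strand of the gene, with each CpG in capitals. The neighbouring genes of the hormones vasopressin (Avp, chr2:130582539-130582838, minus strand) and oxytocin (Oxt, chr2:130575919-130576218, plus strand) each have their whole window in a region of the rule. So do Prkcz, which encodes protein kinase C zeta (chr4:155344700-155344999, minus strand), and Cyp26b1, which encodes an enzyme that degrades retinoic acid (chr6:84593761-84594060, minus strand). For Pgam2, the muscle form of the glycolytic enzyme phosphoglycerate mutase (chr11:5803747-5804046, minus strand), the region covers 41 bases of the window. Avp and Prkcz are among the 10 genes whose window lies at the regions with most P14 reads, and the other 3 were chosen after their values were seen.
Avp: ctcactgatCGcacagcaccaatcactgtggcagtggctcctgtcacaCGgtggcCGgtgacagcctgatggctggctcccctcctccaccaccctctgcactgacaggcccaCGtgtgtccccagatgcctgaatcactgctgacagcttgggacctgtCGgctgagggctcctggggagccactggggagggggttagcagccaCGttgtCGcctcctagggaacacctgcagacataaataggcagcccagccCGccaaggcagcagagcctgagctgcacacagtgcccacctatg
Oxt: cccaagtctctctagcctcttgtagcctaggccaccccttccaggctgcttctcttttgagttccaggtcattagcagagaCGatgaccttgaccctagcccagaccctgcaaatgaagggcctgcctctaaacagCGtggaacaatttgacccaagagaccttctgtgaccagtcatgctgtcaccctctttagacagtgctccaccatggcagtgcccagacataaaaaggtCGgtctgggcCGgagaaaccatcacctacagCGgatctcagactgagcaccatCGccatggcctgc
Prkcz: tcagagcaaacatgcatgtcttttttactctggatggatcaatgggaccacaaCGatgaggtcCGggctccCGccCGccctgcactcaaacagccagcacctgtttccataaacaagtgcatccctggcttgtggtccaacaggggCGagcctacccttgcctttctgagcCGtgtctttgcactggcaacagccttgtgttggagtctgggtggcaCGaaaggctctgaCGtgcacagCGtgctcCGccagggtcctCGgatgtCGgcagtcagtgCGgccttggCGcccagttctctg
Cyp26b1: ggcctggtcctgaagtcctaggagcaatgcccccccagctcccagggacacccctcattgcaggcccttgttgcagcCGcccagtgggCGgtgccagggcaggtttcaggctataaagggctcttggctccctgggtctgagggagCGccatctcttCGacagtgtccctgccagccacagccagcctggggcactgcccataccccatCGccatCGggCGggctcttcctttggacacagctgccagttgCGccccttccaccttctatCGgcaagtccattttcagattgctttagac
Pgam2: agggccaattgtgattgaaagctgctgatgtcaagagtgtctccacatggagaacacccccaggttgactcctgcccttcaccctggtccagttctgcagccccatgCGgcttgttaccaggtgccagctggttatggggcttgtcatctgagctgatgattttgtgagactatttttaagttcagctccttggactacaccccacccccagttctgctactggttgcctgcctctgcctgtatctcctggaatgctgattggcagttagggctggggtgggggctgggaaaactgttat
The windows hold 8 CpGs at Avp, 6 at Oxt, 14 at Prkcz, 9 at Cyp26b1 and 1 at Pgam2, and the CpG of Pgam2 lies outside the 41 bases that the region covers.

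The name of a region without reads holds for its count and not for its density. Every region of the rule held some reads at P1. The P1 sum ranged over 3 to 15 with a median of 14, and 652 regions stood at 15 and 527 at 14. Sums of 10 or less were found in 271 regions, sums of 5 or less in 6 and a sum of 3 in 1. Narrow regions with the same P14 condition and a P1 sum of 16 numbered 867, so the limit of 15 cuts through a continuous distribution. The table holds no region with fewer than 60 reads over the 6 libraries, so a P1 sum of 15 requires at least 45 P14 reads. Of the 2349 narrow regions with a P1 sum of 15 or less, 2269 met the P14 condition. P14 sums ranged from 45 to 188 with a median of 54, and 134 regions reached 80 reads and 25 reached 100.

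**Figure D1:**
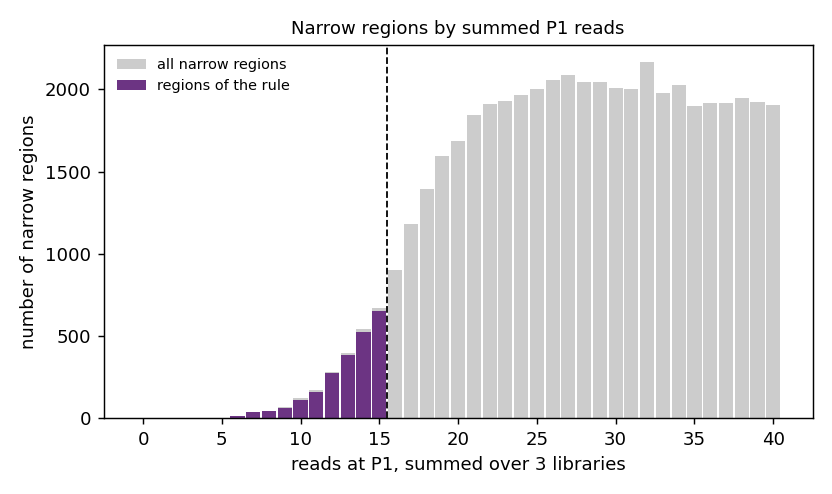
Number of narrow regions (vertical axis) by the reads summed over the 3 P1 libraries (horizontal axis, in reads), with the regions of the rule in purple and all narrow regions in grey. The dashed line marks the limit of 15 reads, beside which the 652 regions at 15 are followed by 903 narrow regions at 16.

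By library, the median region of the rule held 29, 15 and 11 reads in P14 replicates 1, 2 and 3, against 2, 5 and 5 reads in P1 replicates 1, 2 and 3. A region of the rule had 0 reads in P1 replicate 1 in 566 cases, in replicate 2 in 13 and in replicate 3 in 12, while the rule itself allows no 0 at P14. Over all narrow regions the P1 counts of 0 reads were 2496, 30 and 37 in replicates 1, 2 and 3. In reads, P14 replicate 1 is the high library and P1 replicate 1 the low one. The totals over all regions differed little, with 21512072, 20027789 and 16284216 reads at P14 and 18505983, 17532547 and 18101856 at P1. The libraries differed more in the share of reads that lay in narrow regions, which was 35.8%, 21.8% and 19.7% at P14 and 14.6%, 16.2% and 15.7% at P1. Of the reads in narrow regions, those in regions of the rule made up 0.916%, 0.792% and 0.798% at P14 and 0.211%, 0.420% and 0.419% at P1.

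The regions are short, and at a density near that of its surroundings a short region holds few reads. Their median width was 643 bp, in a range of 317 to 2746 bp, while the median narrow region measured 1005 bp. They made up 8.31% of the narrow regions of 500 bp or less, 5.02% of those above 500 and up to 750 bp, 0.997% of those up to 1000 bp and 0.0289% of those above 2000 bp. In this table short regions alternate with longer stretches that adjoin them without a gap, and for 1462 regions of the rule both adjoining stretches are listed. At P1, the reads per kb of these regions were at or below those of the adjoining stretches for most of them, with a median ratio of 0.876 and quartiles of 0.693 and 1.10. At P14 the median ratio was 3.33, with quartiles of 2.61 and 4.54. The density lay above that of the adjoining stretches in every P14 library for 1368 regions, or 93.6%, and below it in every P1 library for 293, or 20.04%. Over all narrow regions with both neighbours listed these shares were 69.05% and 20.59%. The share below in every P1 library was thus no larger for the regions of the rule than over narrow regions. By the median ratios, most of the 1462 regions stood out from their surroundings at P14 and had a density near that of their surroundings at P1. The rule limits the reads of these regions at both ages, so both ratios depend on how the regions were picked. The 90514 narrow regions with both neighbours listed had median ratios of 2.94 at P14 and 1.58 at P1, and they include short stretches between enriched places, which lie far below 1.

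**Figure D2:**
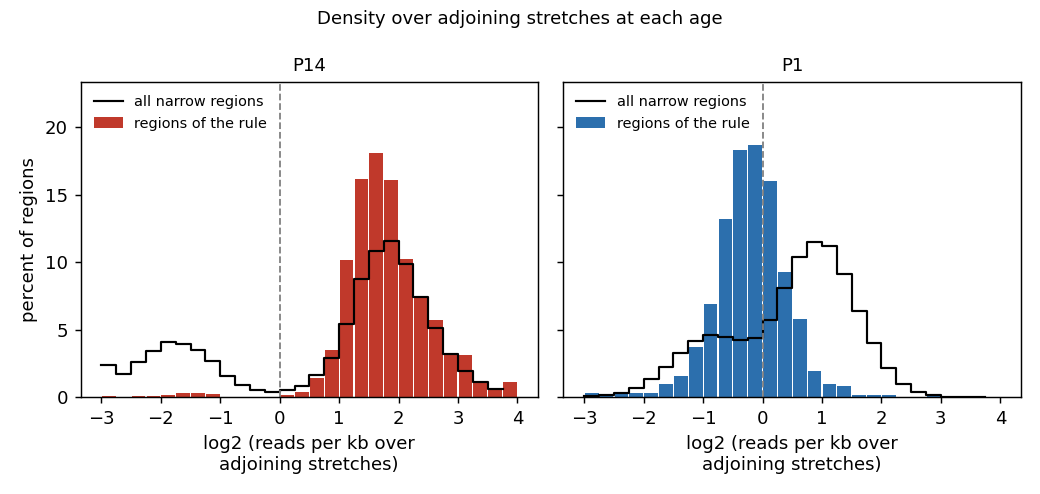
Percent of regions (vertical axis) by the log2 ratio of reads per kb over the adjoining stretches (horizontal axis), summed over the 3 libraries of P14 (left) and of P1 (right). Bars are the 1462 regions of the rule with both neighbours listed, black lines are all 90514 such narrow regions, and values beyond the axis ends are in the outermost bins. The bars centre above 0 at P14, with a median ratio of 3.33, and just below 0 at P1, with a median ratio of 0.876.

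Summed over these 1462 regions, the density was 45.1, 23.2 and 17.0 reads per kb in P14 replicates 1, 2 and 3, against 3.82, 7.99 and 7.85 in P1 replicates 1, 2 and 3. Over the adjoining stretches it was 7.62, 7.65 and 6.30 reads per kb at P14 and 7.26, 6.87 and 7.21 at P1. The stretches thus had nearly the same density in all libraries, and the regions between them, which were picked by their reads, did not. The ratio of both was 3.88 ± 1.78 at P14 and 0.926 ± 0.348 at P1 (SD, n = 3 each). In P1 replicate 1 it was 0.526, below the adjoining stretches, while P1 replicates 2 and 3 stood at 1.16 and 1.09. Summed over all narrow regions the P1 ratios were 1.65, 1.80 and 1.74, and the median ratios per narrow region were 1.30, 1.64 and 1.57, so P1 replicate 1 was the lowest there too. Without P1 replicate 1, and with a limit of 10 reads over the other P1 libraries, the rule found 2482 regions, of which 1074 are among the 2269, or 47.3% of them. P14 replicate 1 was at 5.92, apart from 3.03 and 2.69 in the other P14 libraries, and over all narrow regions the P14 ratios were 3.58, 2.32 and 2.14. Whatever sets these 2 libraries apart was not tested.

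**Figure D3:**
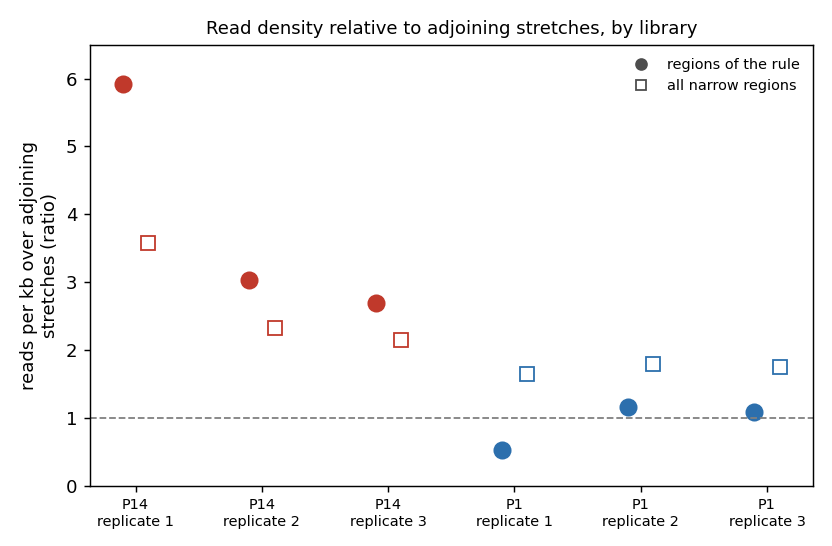
Reads per kb over reads per kb of the adjoining stretches (vertical axis, ratio) in each library, with P14 libraries left in red and P1 libraries right in blue. Filled circles are the regions of the rule and open squares all narrow regions. The dashed line marks equal density, and the circles run from 2.69 to 5.92 at P14 and from 0.526 to 1.16 at P1.

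The reads of the adjoining stretches were not used by the rule, and they are compared between ages here. The stretches were taken because they touch regions picked by their reads, however, so the comparison is not independent of the rule. The 2451 stretches over 5000 bp that adjoin a region of the rule make up 2.50% of the length of all such stretches. They took 2.98%, 2.70% and 2.67% of the reads in such stretches at P14, against 2.55%, 2.60% and 2.62% at P1. The mean was 2.78% ± 0.174 at P14 and 2.59% ± 0.0343 at P1 (SD, n = 3 each), and every P14 library lay above every P1 library. The exact permutation p was 0.1, two-sided, the smallest that 3 libraries against 3 can give. The median log2 change of the contiguous stretches, P14 over P1 in the fit over all regions, was -0.24 beside these regions and -0.27 beside all narrow regions. The nearest narrow regions outside the rule had a median log2 change of 0.06, with 54.7% above 0, while for narrow regions in general these values were 0.07 and 56.3%.

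Applied with the ages exchanged, the same limits found far fewer regions. A P14 sum of 15 or less with at least 5 reads in each P1 library was met by 309 narrow regions, with a median width of 622 bp, beside the 2269 of the rule. With counts scaled to the mean library total, the numbers were 264 with the ages exchanged and 1612 for the rule. With counts scaled to the mean total over narrow regions, however, they were 458 and 271, so the excess turned round. Which age has more regions of this kind thus depended on whether the larger share of reads in narrow regions at P14 was scaled away. This comparison was added after seeing the data.

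To give each region a value with an error, read counts were scaled within narrow regions by TMM, a factor per library that sets most regions equal, and expressed as CPM, counts scaled to the size of each library within narrow regions. The log2 changes of single regions given from here on are P14 over P1 on this scale, from a negative binomial fit. The standard error (SE) was derived as the size of the log2 change over the square root of the F statistic of edgeR's test. It is approximate at counts this low. The median region of the rule had 3.69, 3.36 and 3.38 CPM at P14 and 0.772, 1.78 and 1.77 CPM at P1. The same median over all narrow regions was 5.85 ± 0.274 CPM at P14 and 6.07 ± 0.0906 CPM at P1 (SD, n = 3 each). The log2 changes of the regions of the rule ran from 0.54 to 3.17 with a median of 1.11, beside a median of 0.08 over all narrow regions. Every P14 library lay above every P1 library in CPM for 1158 of the 2269 regions, or 51.0%, where the background over all narrow regions was 7.38%. In reads, which are not scaled to the library, the share of the regions of the rule was 79.1%. The share in reads over all narrow regions is not given here. The rule used these counts, so nothing is read from that share. The same holds for the regions named below whose ages do not overlap in reads. P1 replicate 1 was the lowest P1 library in CPM for 63.2% of the regions of the rule and for 40.6% of all narrow regions. P14 replicate 1 was the highest P14 library for 47.7% and 34.0%.

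With TMM scaling and all 6 libraries, edgeR called no region of the rule. In edgeR's quasi-likelihood test over all regions, 0 of 209063 regions had an adjusted p under 0.05 with a higher value at P14, a background of 0%, while 48109 had an unadjusted p under 0.05, and DESeq2 called 66, of which 4 were regions of the rule. Over narrow regions, the edgeR test called 1 of 116796, or 0.000856%, which was a region at Egr3 (adjusted p = 0.0475, log2 change 2.67, SE 0.36) outside the rule, named after its value was seen. DESeq2 called 120 narrow regions higher and 1595 lower, 7 of the first being regions of the rule. The default filter on low counts kept 443 of the 2269 regions in the narrow fit and 1469 in the fit over all regions. The values of single regions therefore come from a narrow fit without that filter, chosen after seeing the data, in which edgeR called 0 regions and 20374 had an unadjusted p under 0.05. When the libraries were scaled to their reads in stretches over 5000 bp, the same unfiltered test called 1250 of the 2269 regions higher at P14. It called 9626 of all 130221 narrow regions higher, and their median log2 change on that scale was 1.09. The rule used these counts, so the calls at its regions, by either tool, are a description and no support for a difference.

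The region with most P14 reads carries the name of Gata2, which encodes a zinc finger transcription factor of blood and endothelial development (chr6:88190014-88191408). By RefSeq the region lies in the span of Gm38708 and not in that of Gata2. It held 107, 59 and 22 reads at P14 and 8, 2 and 5 at P1, a log2 change of 2.62 (SE 0.47). A further Gata2 region (chr6:88194143-88195281) held 59, 33 and 14 reads at P14 and 4, 0 and 6 at P1. In both, every P14 library lay above every P1 library in reads and in CPM.

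A region shared by Bop1, a ribosome assembly factor, and Scx, the tendon transcription factor scleraxis (chr15:76457202-76458410), held 139, 14 and 21 reads at P14 and 6, 5 and 1 at P1, a log2 change of 2.67 (SE 0.64). Here P14 replicate 1 held most of the reads, and without it the log2 change was 1.66. The region at Mdk, which encodes the secreted growth factor midkine (chr2:91930738-91931990), held 81, 32 and 29 reads at P14 and 5, 3 and 6 at P1, with a log2 change of 2.36 (SE 0.44). At Zfp423, a zinc finger regulator of fat cell and nervous system development (chr8:87731963-87732709), reads were 84, 23 and 19 at P14 and 3, 4 and 7 at P1. The groups did not overlap at any of these 3 places, in reads or in CPM.

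At Tcap, which encodes the titin cap protein of the sarcomere, the region also carries the name Pnmt, the enzyme that makes adrenaline (chr11:98383883-98384795). It held 81, 18 and 14 reads at P14 and 2, 5 and 5 at P1, a log2 change of 2.12 (SE 0.55), which was 1.49 without P14 replicate 1. Bmp8b, a ligand of the BMP family (chr4:123118353-123119308), had 86, 10 and 21 reads at P14 and 6, 3 and 6 at P1, and with a P1 sum of 15 it stands just inside the limit. A region without a gene name in the span of Tnrc18 (chr5:142737434-142738044) had 84, 25 and 9 reads at P14 and 0, 9 and 3 at P1. In this last region the lowest P14 library equals the highest P1 library in reads. In CPM the ages overlapped there and also at Bmp8b.

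The other 3 of the 10 lie at genes with close copies elsewhere in the genome, so the placing of their reads is uncertain. The region at Gm13146, in a zinc finger gene cluster (chr4:147186416-147189045), held 146, 27 and 10 reads at P14 and 4, 3 and 4 at P1. A region named for Gimap5, a GTPase of lymphocyte survival, and also for Gm3345 and Gimap1 lies in the RefSeq span of Gimap1 (chr6:48742438-48743366). It held 73, 28 and 15 reads at P14 and 6, 3 and 3 at P1. At H2-Q7, a nonclassical MHC class I gene (chr17:35439671-35440408), reads were 87, 13 and 13 at P14 and 6, 3 and 5 at P1. In all 10 regions P14 replicate 1 had the most reads, as it did in 91.1% of the 2269, whereas in CPM it was the highest P14 library in 47.7%.

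**Figure D4:**
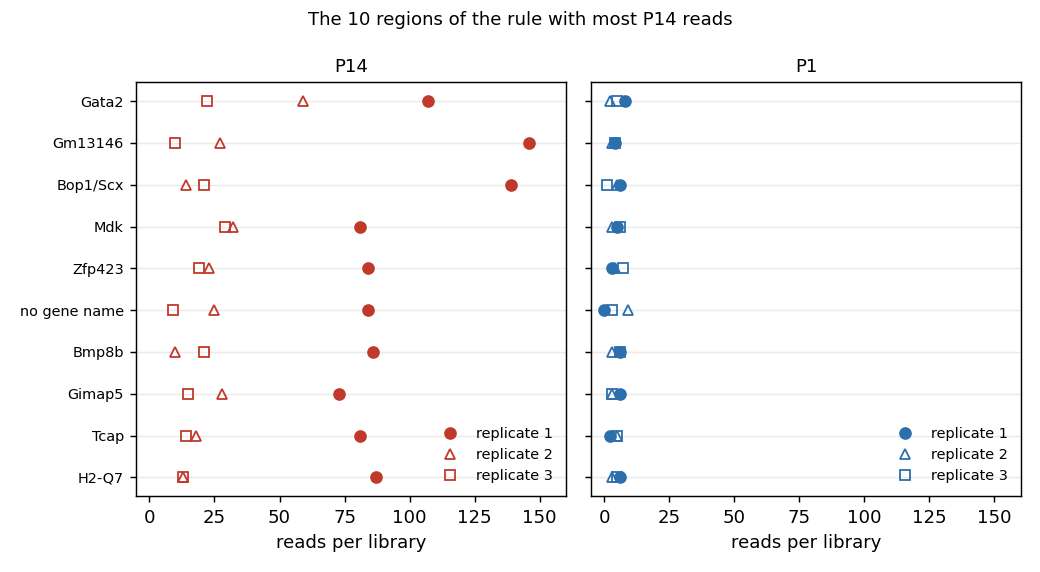
Reads per library (horizontal axis) in the 10 regions of the rule with most P14 reads (vertical axis, by the gene named in the table), with P14 libraries in the left panel and P1 libraries in the right. Filled circles are replicate 1, triangles replicate 2 and squares replicate 3. P14 replicate 1 lies at 73 to 146 reads, and no P1 library exceeds 9.

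The emptiest region at P1 has no gene name in the table and lies in the span of Gm38396 (chr17:17199604-17200344). It held 45, 12 and 5 reads at P14 and 0, 2 and 1 at P1, a log2 change of 3.17 (SE 0.82), with a density 12.8 times that of its adjoining stretches at P14 and 0.45 times at P1. At the other edge, Ctdp1, a phosphatase of RNA polymerase, lies just inside the limit with 57, 35 and 17 reads at P14 and 3, 7 and 5 at P1. Just outside it, with a P1 sum of 16, Peg12 held 86, 28 and 15 reads at P14 and 3, 8 and 5 at P1. At Gm13140 they were 89, 39 and 17 at P14 and 6, 8 and 2 at P1, and at Ttc7 77, 22 and 16 at P14 and 0, 6 and 10 at P1.

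How far single regions rest on P14 replicate 1 varied. The log2 ratio of its CPM to the mean of the other P14 libraries, with 0.1 added, was highest at Fndc1 (2.19), at Fuz and Ap2a1 (2.09) and then at Gm13146. Fndc1, a fibronectin domain protein, held 56, 5 and 6 reads at P14 and 3, 5 and 7 at P1, and its log2 change of 0.98 (SE 0.66) was -0.32 without P14 replicate 1. The ratio was lowest at Nbas (-2.22), with 9, 29 and 16 reads at P14 and 0, 5 and 7 at P1, and at 2 regions without a gene name (-2.11 and -1.91). Without P14 replicate 1, 7 of the 2269 regions had a log2 change below 0, and without both replicates numbered 1 there were 73.

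Most of the regions lie in genes. Of the 2269 regions, 67.6% overlapped a RefSeq gene span, 8.86% lay within 5 kb of one and 23.6% lay farther away. For the narrow regions outside the rule these shares were 74.6%, 7.53% and 17.9%. The table gave 61.9% of the regions a gene name, and 52.3% of all narrow regions. They lay on every chromosome from 1 to 19, at 14.0 per 1000 narrow regions on chromosome 9 to 21.7 on chromosome 2, with 17.4 overall. The last 3 Mb of the chromosomes held 3.31% of them and 2.81% of narrow regions. They were scattered, with a median gap of 187448 bp to the next one, and 134 had another within 10000 bp. No test was made of these shares.

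The table assigns the regions to 1345 genes, 7.58% of the 17743 genes named at a narrow region. There were 154 genes with more than 1. Gm20388 had 22 of its 841 narrow regions in the rule, Fgfr2 9 of 199, Gse1 6 of 87, Csmd2 6 of 85 and Camta1 5, as many as Cdh23, Trappc9 and Zfp423. For Gm20388 and Fgfr2 the assignment covers much more than the named gene. The 22 regions of Gm20388 lie on chromosome 8 between 120009334 and 123758489 and include those named Gse1, Zfpm1, Foxl1, Crispld2, Cdh15 and Rhou. The 9 regions of Fgfr2, a receptor for fibroblast growth factors, lie on chromosome 7 between 130407566 and 133035789. Of these, 6 fall in RefSeq spans of Ate1, Tacc2, Cuzd1, Lhpp and Ctbp2, and the others in no gene span. None of the 9 thus lies in the RefSeq span of Fgfr2 itself. Csmd2, a large transmembrane protein, and Camta1, a calmodulin-binding transcription activator, have their regions spread along long genes. The exception is 1 region named Camta1 (chr4:150973069-150973686), which lies in the RefSeq span of Gm30120 and not in that of Camta1. At Csmd2 the region with most P14 reads (chr4:128131929-128132564) held 37, 11 and 20 reads at P14 and 0, 6 and 7 at P1. At Camta1 (chr4:151244209-151244920) it held 48, 8 and 19 at P14 and 8, 3 and 4 at P1, and at Gse1, a nuclear protein gene (chr8:120542664-120543526), 38, 34 and 9 at P14 and 5, 0 and 9 at P1. In the Camta1 and Gse1 regions the lowest P14 library only equals the highest P1 library in reads. In CPM the ages overlapped in both, and also in the Csmd2 region. The other 13477 narrow regions of the 1345 genes had a median log2 change of 0.22, and edgeR called 0 of them.

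Among the gene lists other than cell type markers, the T-box, GATA, forkhead and Sox factors had the largest share of regions of the rule, of which no test was made. Of the narrow regions that carry any gene name, 2.06% were regions of the rule. In that list the count was 19 of 327, or 5.81%, at 16 of 59 genes, with a median log2 change of 0.26 over all 327. These 19 include both Gata2 regions, the Scx region and 2 each at Zfpm1, the GATA cofactor FOG1, and at Myocd. Gata4, which drives heart muscle genes, held 27, 15 and 9 reads at P14 and 2, 5 and 4 at P1 (chr14:63200139-63200758). Myocd, the serum response factor coactivator myocardin, held 26, 23 and 10 at P14 and 0, 3 and 6 at P1 (chr11:65255077-65255794). In the Gata4 and Myocd regions all P14 libraries lay above all P1 libraries in reads and in CPM. The region at Foxo6, a forkhead factor (chr4:120266921-120268099), held 38, 40 and 19 reads at P14 and 3, 7 and 3 at P1, and here replicate 2 was the highest P14 library.

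Immediate early and zinc finger regulators had 10 of 189 narrow regions in the rule, or 5.29%, at Gli1, Gli2, Gli3, Klf14, Prdm16 and Wt1, of which Prdm16, a regulator of brown fat and heart development, alone had 4. At the Prdm16 region with most P14 reads (chr4:154347642-154348300) reads were 52, 24 and 6 at P14 and 7, 5 and 3 at P1, so that the groups overlapped. At Wt1, a transcription factor of the outer layer of the developing heart, the region with more reads (chr2:105132783-105133749) held 53, 21 and 9 reads at P14 and 3, 4 and 3 at P1. At Gli1, an effector of Hedgehog signalling (chr10:127332295-127332956), reads were 50, 12 and 17 at P14 and 4, 7 and 3 at P1. Homeobox factors had 9 of 309, or 2.91%, among them 2 at Lhx6, a factor of interneuron development, and 1 at Pax8, a factor of thyroid and kidney development. The Lhx6 region with more P14 reads (chr2:36093762-36094618) held 50, 23 and 16 reads at P14 and 3, 4 and 6 at P1, and the other (chr2:36087031-36087849) 54, 18 and 16 at P14 and 2, 10 and 2 at P1. The Pax8 region (chr2:24474717-24475527) held 56, 20 and 10 reads at P14 and 3, 7 and 3 at P1. Homeobox factors were thus closer to the 2.06% of all regions with a gene name than the lists named before.

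BMP, TGF-beta, FGF, Hedgehog and Notch genes had 26 of 663, or 3.92%, of which 9 carry the name Fgfr2 but lie outside its RefSeq span. Ligands among them included Mdk, Bmp8b, Bmp7, Tgfb1 and Dll4. At Dll4, a Notch ligand of endothelium (chr2:119323657-119324479), reads were 29, 23 and 22 at P14 and 0, 8 and 2 at P1. At Tgfb1, the transforming growth factor beta 1 gene (chr7:25704556-25705481), reads were 43, 19 and 12 at P14 and 3, 2 and 7 at P1. Ltbp4, which holds latent TGF-beta in the matrix (chr7:27329344-27330499), had 56, 19 and 14 reads at P14 and 4, 5 and 4 at P1. A region named for Numbl, an inhibitor of Notch signalling, and also for Adck4 and Gm15567 lies in the RefSeq span of Coq8b (chr7:27256974-27257685). Its reads were 48, 23 and 9 at P14 and 2, 2 and 2 at P1, a log2 change of 2.67 (SE 0.62). The Wnt pathway had 7 of 343, or 2.04%. Fzd1, a Wnt receptor (chr5:4755621-4756485), held 64, 20 and 17 reads at P14 and 2, 6 and 4 at P1.

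Sarcomere and Z-disc genes had 14 of 365 narrow regions in the rule, or 3.84%, at 12 of 58 genes, and cardiomyocyte markers 5 of 80, or 6.25%, all 5 being also in the sarcomere list. Tnnt2, cardiac troponin T (chr1:135837898-135838682), held 38, 25 and 15 reads at P14 and 2, 4 and 6 at P1, a log2 change of 1.77 (SE 0.54), with all P14 libraries higher in reads and in CPM. The other sarcomere regions described here were chosen after their values were seen. Myh6, the adult cardiac myosin heavy chain of the mouse (chr14:54946116-54946831), held 45, 16 and 13 reads at P14 and 1, 11 and 3 at P1. Myh7, the fetal one, had 51, 12 and 8 reads at P14 and 2, 6 and 3 at P1 at its region with more reads (chr14:54983426-54983958). At Myl2, the ventricular myosin light chain (chr5:122098187-122098690), reads were 37, 12 and 10 at P14 and 1, 8 and 4 at P1. For Actc1, cardiac actin, the region with more reads (chr2:114051530-114052331) held 32, 17 and 16 reads at P14 and 3, 7 and 3 at P1. In each of these regions the lowest P14 library was above the highest P1 library in reads, but in CPM the ages overlapped at Myh6 and Myl2. The median log2 change of the 14 regions, which were picked by these counts, was 1.27. That of all 365 sarcomere regions was 0.25, while it was 0.08 over all narrow regions, many of which carry no gene name. The median over all regions of a list was 0.27 for synaptic and axon guidance genes and 0.26 for the Wnt pathway. It was 0.23 for extracellular matrix genes and proteases and 0.06 for cell cycle genes. The value of 0.25 was thus not particular to sarcomere genes.

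**Figure D5:**
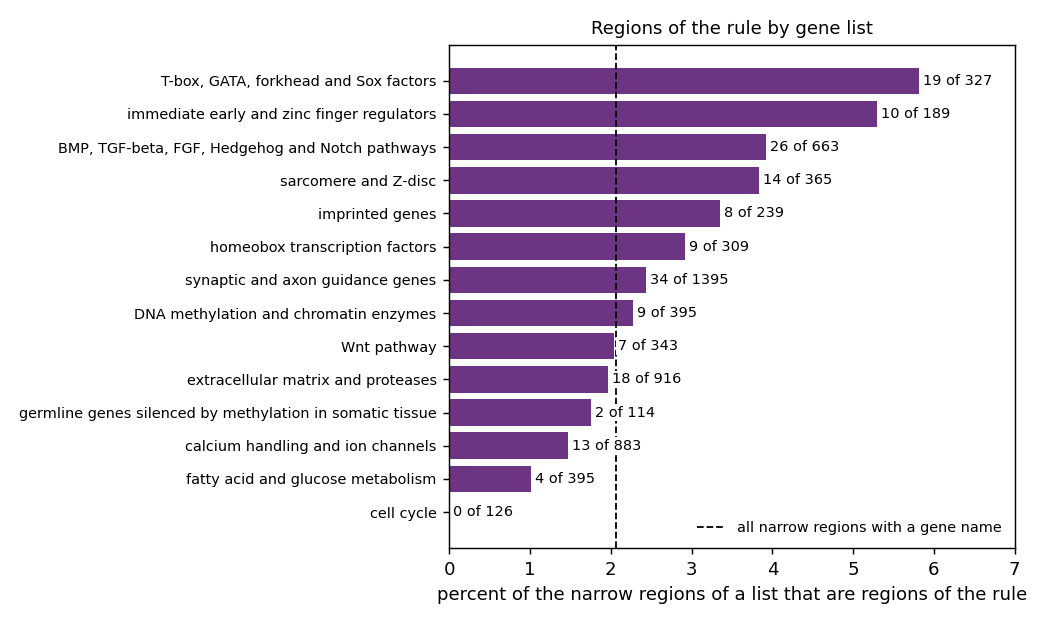
Percent of the narrow regions of each gene list that are regions of the rule (horizontal axis), with their number beside each bar and the lists on the vertical axis. The dashed line is the 2.06% of all narrow regions with a gene name. The cell type marker lists are not drawn. Among the lists drawn, T-box, GATA, forkhead and Sox factors stand highest at 5.81% and the cell cycle list is at 0.

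Of the other lists, imprinted genes had 8 of 239, or 3.35%, of which 5 lie at Trappc9. Synaptic and axon guidance genes had 34 of 1395, or 2.44%, DNA methylation and chromatin enzymes 9 of 395, or 2.28%, and extracellular matrix genes and proteases 18 of 916, or 1.97%. In the matrix list, the protease gene Adamts7 (chr9:90182461-90183351) held 57, 22 and 16 reads at P14 and 3, 4 and 8 at P1, and the collagen gene Col18a1 (chr10:77090993-77091531) held 55, 13 and 15 at P14 and 5, 7 and 3 at P1. In both, every P14 library lay above every P1 library in reads and in CPM. Germline genes had 2 of 114, at Pou5f1 and Tdrd7. Calcium handling and ion channel genes had 13 of 883, or 1.47%, fatty acid and glucose metabolism 4 of 395, or 1.01%, at Cpt1a, Igf1, Pgam2 and Tpi1, and cell cycle genes 0 of 126. Of the other marker lists, fibroblast genes had 2 of 26, or 7.69% (both Wt1), blood and macrophage genes 1 of 27, or 3.70% (Itgam), smooth muscle and pericyte genes 1 of 48, or 2.08% (Myh11), endothelial genes 1 of 93, or 1.08% (Vwf), and neuron and glia genes 0 of 34. The DNA methylation enzymes themselves were among the genes with a region. At Dnmt3a (chr12:3864256-3864858) reads were 40, 16 and 11 at P14 and 1, 6 and 5 at P1. At Dnmt3b (chr2:153682092-153682815) they were 25, 20 and 11 at P14 and 3, 6 and 6 at P1. A region of Igf1, the insulin-like growth factor (chr10:87916351-87917107), held 71, 7 and 12 reads at P14 and 5, 5 and 5 at P1. Its log2 change of 1.44 (SE 0.61) was 0.47 without P14 replicate 1, and in CPM the ages overlapped.

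Gene starts were not a common place for the regions. A RefSeq promoter window of 300 bases was overlapped by 62 of them, or 2.73%, and by 2.89% of all narrow regions. The 62 regions touch 75 windows of 63 genes. These windows had a median of 6 CpGs and a median ratio of observed to expected CpG of 0.27. These medians were 7 and 0.33 over the windows that other narrow regions overlap, and 7 and 0.38 over all 32851 windows of the table. In the 23 windows that lie wholly in a region of the rule they were 9 and 0.39, so the lower values did not hold for those. Among the 75, 7 overlapping windows belong to Gm30788. A ratio above 0.6, the usual mark of a CpG island, was found in 5 of the 75, or 6.67%, in 20.7% of the windows that other narrow regions overlap, and in 35.8% of all windows. The letters GGGCGG, the core of the Sp1 motif, occurred on either strand in 20 of the 75 windows, or 26.7%, of which 7 belong to Gm30788. It occurred in 28.0% of the windows that other narrow regions overlap and in 35.7% of all windows. The E-box forms CACGTG and CAGCTG occurred in 6 and 15 of the 75, or 8% and 20%. They occurred in 8.18% and 20.4% of the windows that other narrow regions overlap, and in 7.15% and 16.3% of all windows. The Egr motif GCGTGGGCG was in 1 of the 75 (1.33%), in 0.346% of the windows that other narrow regions overlap and in 0.612% of all. For the cyclic AMP response element TGACGTCA the values were 0 of the 75, 1.58% and 1.79%, in that order. Motifs were counted separately, so a window can hold several and they can share bases.

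In the region at the Avp promoter (chr2:130582182-130583077), reads were 51, 22 and 18 at P14 and 4, 4 and 2 at P1, a log2 change of 2.19 (SE 0.53). The Oxt region (chr2:130575881-130576608) held 37, 18 and 12 reads at P14 and 2, 8 and 3 at P1, a log2 change of 1.39 (SE 0.57). Relative to the adjoining stretches their density was 3.21 and 5.07 at P14 and 0.54 and 1.16 at P1, Avp first. The Cyp26b1 region (chr6:84593669-84594256) had the same P14 reads as the Oxt region, 37, 18 and 12, and 3, 4 and 3 at P1. At Prkcz (chr4:155344458-155345159) reads were 51, 19 and 10 at P14 and 2, 9 and 4 at P1, and at Pgam2 (chr11:5803098-5803787) 41, 12 and 11 at P14 and 0, 8 and 4 at P1. In all 5 the groups did not overlap in reads, but in CPM they overlapped at Prkcz and Pgam2. The other windows at the regions with most P14 reads belong to Angpt4, an angiopoietin, with 67, 20 and 13 P14 reads, to Dctn1, a dynactin subunit, to Pfn3, a profilin, and to 5 genes known only by provisional names.

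Regions of the rule cover the mature sequences of 4 miRNAs, printed because a captured region over a miRNA gene lies on the sequence of its product. The seed, bases 2 to 8, is in capitals, and no seed is shared between them.
mmu-miR-1a-1-5p: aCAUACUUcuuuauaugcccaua
mmu-miR-193b-5p: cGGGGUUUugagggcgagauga
mmu-miR-193b-3p: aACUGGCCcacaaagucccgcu
mmu-miR-1982-5p: uUGGGAGGguccuggggagg
mmu-miR-1982-3p: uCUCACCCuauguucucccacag
mmu-miR-6955-5p: aGGGCCUCaggacucaggagguga
mmu-miR-6955-3p: aCACCUGUcuccuuugcccaca
The miR-1 family is the most abundant of heart and skeletal muscle. This is said of the family and not of the 5p sequence, the only product of Mir1a-1 printed here. The region at Mir1a-1 (chr2:180388807-180389470) held 24, 20 and 15 reads at P14 and 0, 4 and 8 at P1, a log2 change of 1.44 (SE 0.66). The region at Mir193b (chr16:13449379-13450061) held 20, 18 and 13 reads at P14 and 1, 4 and 4 at P1, a log2 change of 1.64 (SE 0.61). In both, every P14 library lay above every P1 library in reads and in CPM. At Mir1982, in the Oaz1 gene (chr10:80828045-80828931), reads were 40, 18 and 10 at P14 and 0, 6 and 8 at P1. The region over miR-6955 in Gga1 (chr15:78891836-78892814) held 42, 25 and 13 reads at P14 and 5, 7 and 3 at P1. Among all regions of the rule, 3 overlapped a RefSeq hairpin, or 0.132%, beside 0.228% of all narrow regions. The hairpin of Mir1a-1 was not used here.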

How the data were processed

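Ventricular DNA was fragmented by sonication, enriched with a methyl-CpG binding domain kit and sequenced for 36 cycles on a Genome Analyzer IIx, per the labels' protocols. The authors deposited 1 table of raw whole-number read counts per region for 6 libraries. Of the tools, edgeR 3.2.4, bedtools, MACS and BWA appear in the submitters' processing notes, each with no step attached, and the build there is mm10 (GRCm38). The sources used here do not give the handling of duplicate and multi-mapping reads, the peak-calling settings or the step that removed regions under 60 reads.

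Of 221524 lines, 7567 listed the same interval and counts again under another gene and were merged. The regions, gene lists and rules for naming regions were chosen with earlier results of these data known. Counts were tested with the quasi-likelihood test of edgeR 4.0.16 in R 4.3.3 with TMM scaling, a model of age alone, the default filter and Benjamini-Hochberg adjustment at 0.05, over all regions and over narrow regions. Values of single regions are from the narrow fit without the filter. A run of the narrow test on simulated counts was made, but its result is not given here. The alternatives were DESeq2 1.42.0, other scalings, no filter, each library left out, both replicates numbered 1 left out, a block for the replicate number, and other limits of the rule. Some of these were added after seeing the data.

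Place was taken from RefSeq gene spans of GRCm38.p6, without exons or strand, so exon, intron and promoter could not be told apart beyond the 300-base windows. Widths and starts are printed 1-based. Regions named were the 10 with most P14 reads, those with at most 3 P1 reads, up to 20 at list genes, those of the 5 genes with most regions (ties ordered by the number of narrow regions), the 3 on each side of the P1 limit, the 3 at each end of the ratio of P14 replicate 1 to the other P14 libraries, the promoter windows at the regions with most P14 reads, and those at miRNAs. Library totals were 16284216 to 21512072 reads, and a region of the rule rests on 60 to 203 reads in all, so counting error is large for each.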

Additional observations from a re-analysis of the deposited data

How the results depend on the processing

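The number of regions depended on the limits. The rule found 271 regions with a P1 limit of 10 reads, 8825 with a limit of 20, and 271 with counts scaled to the mean total over narrow regions. With 1 library left out, with a P1 limit of 10 for 2 libraries, it found between 2269 and 5738. Calls over all regions were 66 by DESeq2, between 0 and 2028 with 1 library left out (2028 without P14 replicate 1) and 7580 without both replicates numbered 1, against 0. Of these calls, the 66 by DESeq2 were all higher at P14. Without P14 replicate 1, 255 of 209315 tested regions were called higher and 1773 lower. Without both replicates numbered 1, 2434 of 205003 were called higher and 5146 lower. Regions of the rule among the calls were 4 of 2269 tested, 8 of 1366 and 193 of 1166, in that order. All of these were higher at P14, a direction that the rule favours. Calls over narrow regions were 10233 when scaled to reads in stretches over 5000 bp (10177 higher), 1715 by DESeq2, 0 without the filter, between 0 and 1 with 1 library left out and 0 without both replicates numbered 1, against 1. Same-numbered libraries did not deviate together over narrow regions, with correlations of -0.09, -0.06 and 0.01, which gave no sign of pairing by number. With few reads per region, these correlations cannot exclude such a pairing. With a replicate block the edgeR test called 0 regions in both fits, and the median log2 change of the regions of the rule was 1.19. That median was 1.11 in the unfiltered fit, 2.12 when scaled to reads in stretches over 5000 bp, with 1.09 then over all narrow regions, and between 0.93 and 1.32 with 1 library left out. The log2 change at Fndc1 was between -0.32 (without P14 replicate 1) and 1.38 with 1 library left out. Without both replicates numbered 1 it was -0.56 at Fndc1, -0.12 at the region named Fgfr2 and Tacc2 and -0.035 at that of Cdh15 and Gm20388. The cause was not tested. The regions rest on few reads each.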
